A study of Mus musculus with 9 samples.

Results

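The glutathione, thioredoxin and antioxidant genes described here are 31 genes that control hydrogen peroxide and the thiol state of proteins, chosen by their symbols and found among 26683 genes of a count table from mouse splenic regulatory T (Treg) cells. Treg cells restrain other lymphocytes and are defined by the transcription factor Foxp3. RNA was sequenced from CD4+ cells carrying a yellow fluorescent Foxp3 reporter, 1 mouse per library, all female and 2 to 3 months old per the labels. The 5 control libraries (WT) came from B6N.Foxp3YFP-Cre mice and the 4 knockout libraries (KO) from EsrrgNf/f.Foxp3YFP-Cre mice. Mice of both groups carried the Foxp3-driven Cre recombinase with its fluorescent reporter, so the floxed Esrrg gene would be cut wherever Foxp3 is expressed. Esrrg encodes the nuclear receptor ERR-gamma, a regulator of mitochondrial genes that the series title ties to Treg development and metabolism. In the titles, the names in brackets start with B6-N for WT and Err for KO; if those stand for colonies, colony and genotype cannot be told apart.

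Mitochondria and NADPH oxidases release superoxide, which superoxide dismutases turn into hydrogen peroxide. Peroxide is then removed by catalase and by a pair of parallel thiol systems, both paid for with NADPH. In the glutathione arm, a tripeptide made from cysteine gives electrons to glutathione peroxidases and glutaredoxins and is recharged by glutathione reductase. In the thioredoxin arm, thioredoxin reductase recharges thioredoxin, which in turn recharges the peroxiredoxins. The transcription factor NRF2 (Nfe2l2) drives many of these genes through antioxidant response elements, and KEAP1 keeps it low in unstressed cells. In T cells, glutathione is known for letting activated cells grow, and Txnip, the thioredoxin inhibitor, for its high level in resting cells.

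Several libraries stood apart, and the values bear on what follows. Total counts ran from 15269014 to 17425634. Markers of T and Treg cells summed to between 4635 and 4948 CPM (counts scaled to the size of the library) in all 9 libraries, as the label says. Esrrg had 0 counts in every library, WT included, so the deletion itself could not be checked. KO 1 and KO 4 carried more RNA typical of other cells. Their B cell and plasma cell markers summed to 356 and 724 CPM, against 192 to 253 CPM in the WT libraries. A large part of the WT sums was Irf4, at 69.7 to 87.8 CPM in WT, and Xbp1, at 79.8 to 85.1 CPM. In KO 1 and KO 4, Irf4 was at 93.5 and 100.1 CPM and Xbp1 at 91.0 and 111.6 CPM. Neutrophil markers of KO 1 and KO 4 summed to 44.6 and 140.8 CPM, against 2.06 to 7.56 CPM in the WT libraries. Their erythroid markers summed to 28.4 and 20.1 CPM, against 3.75 to 16.0 CPM in the WT libraries. KO 2 and KO 3 held 232 and 258 CPM of the B cell and plasma cell markers. They held 2.18 and 8.27 CPM of the neutrophil markers and 1.80 and 4.00 CPM of the erythroid markers. KO 4 had 27 counts of Xist, the transcript of the inactive X chromosome, where each other library had 27355 or more, although its label says female. Y-linked genes were nearly absent from KO 4, with 0 counts of Ddx3y, 1 of Eif2s3y, 0 of Kdm5d and 1 of Uty. More of these were in WT 2, with 7 counts of Ddx3y and 16 of Eif2s3y, and WT 5 had 3 of Eif2s3y. WT 1 had 7902 CPM of immediate early genes against 1536 to 2092 CPM in the other WT libraries. WT 2 had 424 counts of the keratin gene Krt8 and 505 of Krt19, where no other library had more than 16 of either, and its 118 counts of the pseudogene Txn-ps1 compare with 2 or fewer elsewhere. What part these differences have in the results below was not tested unless a value is given.

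Most of the antioxidant genes lay slightly higher in the KO libraries, and few of the differences passed the test. Of the 31 genes 30 entered the test, all but Slc7a11. With edgeR's quasi-likelihood test and an adjusted p below 0.05, 2 of the 30 passed, Gsr and Gpx1, both higher in KO and both of the glutathione arm. Of all 12738 genes tested, 3.28% passed, 1.40% as higher and 1.88% as lower. With only 2 genes passing, their share of the 30 is too uncertain to be read as a difference from the background. The log2 fold change (KO over WT) was above 0 for 24 of the 30 genes, against 51.5% of all genes tested, and its median was 0.10 against 0.01. An unadjusted p below 0.05 was found for 12 of the 30, against 21.6% of all genes. In bulk RNA, a lower or higher level per cell and a different share of cells holding the RNA cannot be told apart.

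Values above the WT range were shared more often by KO 1 and KO 4 than by KO 2 and KO 3. KO 1 and KO 4 both lay above all 5 WT libraries for 14 of the 30 genes, against 16.7% of all genes tested. KO 2 and KO 3 both lay above all WT libraries for 5 of the 30, against 10.1% of all genes. KO 4 held the highest value for 12 of the 30 genes (15.7% of all genes), and WT 3 held the lowest for 14 (12.6% of all genes). For Gsr, Gpx1, Glrx3 and Srxn1 all 4 KO libraries lay above all 5 WT libraries, which was so for 4.15% of all genes, and none of the 30 showed the opposite (4.92% of all genes). Without KO 1 and KO 4, 22 of the 30 genes had a positive log2 fold change, against 49.0% of all genes, and the median was 0.04. None of the 30 then passed edgeR's test, where 0.908% of all genes did, and 4 had an unadjusted p below 0.05, against 14% of all genes.

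**Figure D1:**
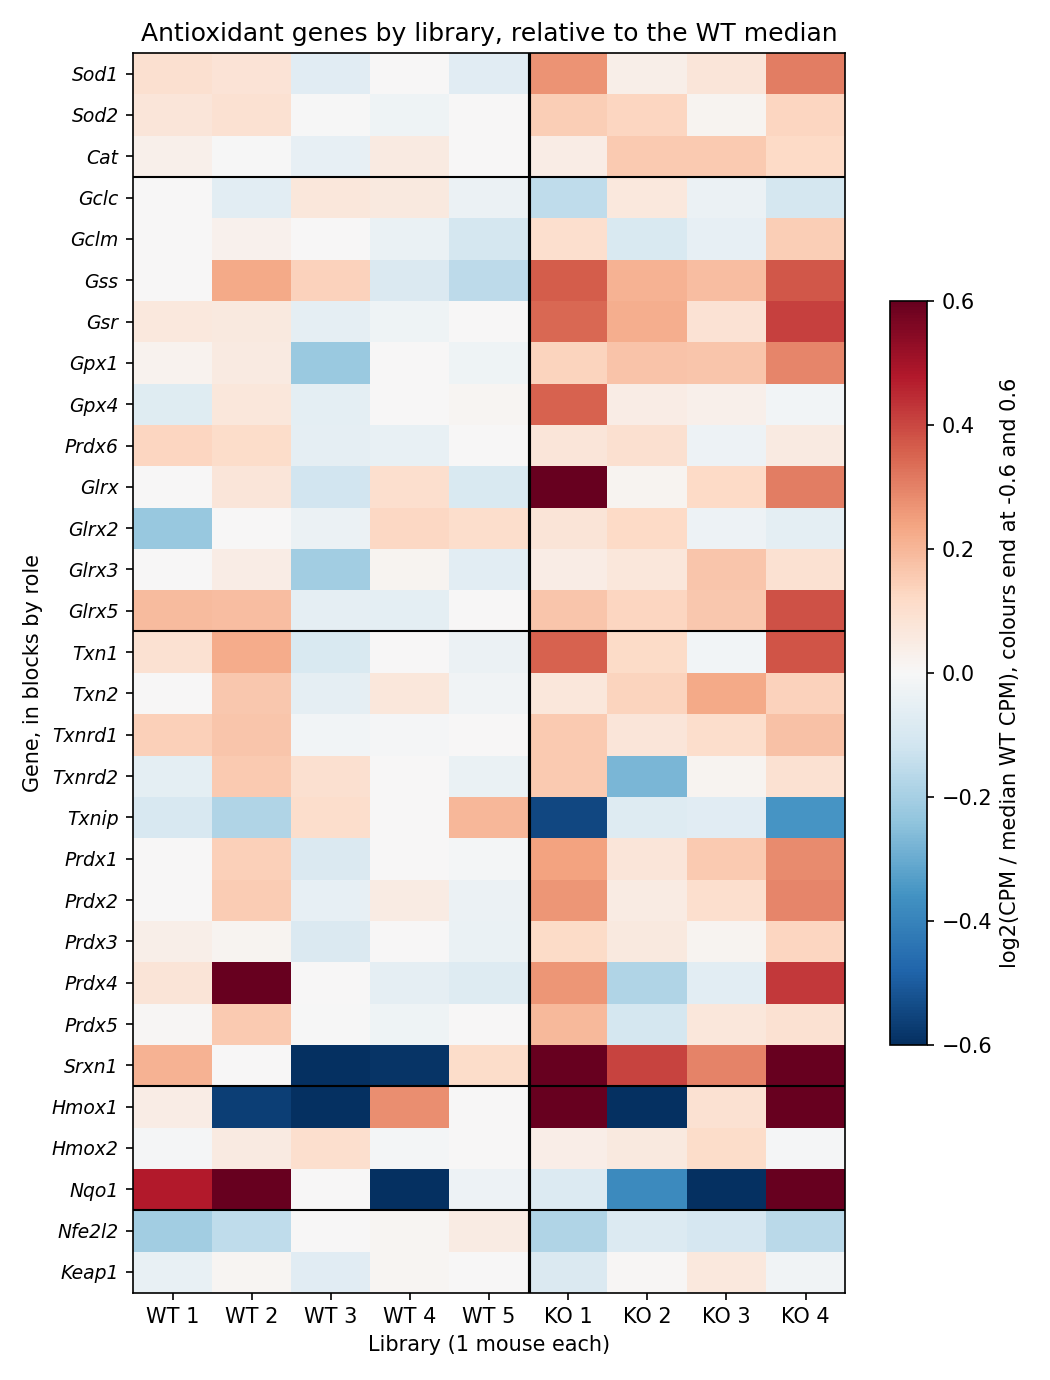
Each row is 1 of the 30 tested genes and each column 1 library; colour gives log2 of CPM over the WT median, red above and blue below, ending at -0.6 and 0.6. Red runs through the KO 1 and KO 4 columns for most genes of the first 3 blocks, WT 3 is mostly blue or pale, and the values beyond the colour range include Nqo1 in WT 2 (10.97 CPM) and Hmox1 in KO 4 (36.2 CPM).

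Promoter sequences are given for Gpx1, which passed the test, and for Prdx1 and Srxn1, a peroxiredoxin and the enzyme that repairs it, both described below. RefSeq windows of the build GRCm38.p6, from 250 bases before to 50 after the start, were found for 27 of the 31 genes, and Gclc, Gsr, Prdx6 and Hmox1 had no entry. The core of the antioxidant response element, TGACNNNGC, was searched on both strands. It occurred in 6 of the 27 genes, Sod1, Gclm, Txnrd1, Prdx1, Srxn1 and Nfe2l2, and in 14% of all genes with a window. Capitals mark the match, which lies on the minus strand in both Prdx1 (TGACTCAGC) and Srxn1 (TGACCTAGC), so that the printed plus strand shows its complement; the Gpx1 window holds no match. The windows are chr9:108338830-108339129 (Gpx1), chr4:116685349-116685648 (Prdx1) and chr2:152105274-152105573 (Srxn1), all on the plus strand. A match describes letters and does not show that a factor binds there.
Gpx1: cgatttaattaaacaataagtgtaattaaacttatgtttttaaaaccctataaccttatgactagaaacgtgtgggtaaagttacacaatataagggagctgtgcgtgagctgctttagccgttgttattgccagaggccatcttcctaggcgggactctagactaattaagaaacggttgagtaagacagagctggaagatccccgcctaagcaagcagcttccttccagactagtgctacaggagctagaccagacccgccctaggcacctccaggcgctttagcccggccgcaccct
Prdx1: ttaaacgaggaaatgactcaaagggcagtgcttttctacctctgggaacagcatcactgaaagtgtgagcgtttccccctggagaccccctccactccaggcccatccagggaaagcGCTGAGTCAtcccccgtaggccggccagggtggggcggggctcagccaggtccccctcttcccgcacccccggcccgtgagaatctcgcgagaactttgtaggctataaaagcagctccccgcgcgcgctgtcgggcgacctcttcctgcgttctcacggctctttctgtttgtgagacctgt
Srxn1: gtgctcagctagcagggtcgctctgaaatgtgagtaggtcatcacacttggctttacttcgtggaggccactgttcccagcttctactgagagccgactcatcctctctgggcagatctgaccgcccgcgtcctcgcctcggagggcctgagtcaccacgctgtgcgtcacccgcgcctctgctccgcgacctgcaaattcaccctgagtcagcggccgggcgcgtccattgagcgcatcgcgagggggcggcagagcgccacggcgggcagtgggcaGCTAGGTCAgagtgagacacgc
The match begins 133 bases before the start in Prdx1 and 28 bases after it in Srxn1.

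Superoxide dismutases and catalase did not pass the test. Cat encodes catalase, which splits hydrogen peroxide in peroxisomes without NADPH. Cat stood at 102.3, 100.2, 96.8, 104.0 and 100.3 CPM in WT 1 to WT 5 and at 103.5, 111.8, 111.9 and 109.0 CPM in KO 1 to KO 4. KO 2, KO 3 and KO 4 lay above every WT library, and KO 1 lay below WT 4. Its log2 fold change was 0.11 ± 0.04 (SE, n = 5 and 4, edgeR adjusted p = 0.113). Cat was 1 of the genes whose difference did not shrink without KO 1 and KO 4, at 0.15 ± 0.04 (edgeR adjusted p = 0.151).

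Sod1, the copper-zinc dismutase of the cytosol, followed KO 1 and KO 4. Its values were 118.1, 117.2, 105.5, 110.6 and 105.5 CPM in WT 1 to WT 5 and 133.2, 113.4, 116.3 and 136.9 CPM in KO 1 to KO 4. KO 2 and KO 3 fell inside the WT range. Its log2 fold change of 0.17 ± 0.06 (edgeR adjusted p = 0.149) became 0.04 ± 0.06 without KO 1 and KO 4 (adjusted p = 0.790). Sod2, the manganese dismutase of mitochondria, had 47.8 ± 1.72 CPM in WT and 50.4 ± 2.02 CPM in KO (SD, n = 5 and 4), with overlapping groups and edgeR adjusted p = 0.351.

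The log2 fold change was above 0 for 10 of 11 tested genes of the glutathione arm, at a median of 0.13 (51.5% and 0.01 over all genes), and 2 of them passed. Gsr (mm10, chromosome 8, 33652523 to 33698163, plus strand) encodes glutathione reductase, which returns oxidised glutathione to its reduced form with NADPH. Gsr was at 35.0, 34.9, 32.3, 33.0 and 33.5 CPM in WT 1 to WT 5 and at 42.5, 39.0, 35.6 and 44.5 CPM in KO 1 to KO 4. The WT values were close together, KO 3 lay just above them, and KO 1 and KO 4 were farthest away. The KO mean CPM was 19.8% above the WT mean, and the log2 fold change was 0.26 ± 0.06 (SE, n = 5 and 4, edgeR adjusted p = 0.0469). With KO 1 and KO 4 left out it was 0.14 ± 0.06 (edgeR adjusted p = 0.329). Leaving out single libraries, Gsr passed without WT 2, KO 2 or KO 3 and failed without WT 1, WT 3, WT 4, WT 5, KO 1 or KO 4, with edgeR adjusted p from 0.0270 to 0.146.

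Gpx1 (mm10, chromosome 9, 108338903 to 108340343, plus strand) encodes the main glutathione peroxidase of the cytosol, a selenoprotein that reduces hydrogen peroxide with glutathione. Gpx1 was at 97.0, 99.1, 81.9, 95.5 and 93.7 CPM in WT 1 to WT 5 and at 104.7, 107.5, 107.3 and 117.0 CPM in KO 1 to KO 4. All 4 KO libraries lay above all WT libraries, and KO 2 and KO 3 were as high as KO 1. The log2 fold change of 0.22 ± 0.06 (SE, n = 5 and 4, edgeR adjusted p = 0.0488) was nearly as large without KO 1 and KO 4, at 0.20 ± 0.06, but no longer passed (adjusted p = 0.192). WT 3 was the lowest library, and without it the log2 fold change was 0.18 (edgeR adjusted p = 0.0927). Of the 9 fits that left out 1 library, Gpx1 passed in the fit without WT 2 and in no other, with edgeR adjusted p from 0.0324 to 0.149. Neither Gsr nor Gpx1 shares annotated exons with another gene.

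None of the genes for making glutathione passed the test. Gclc, the catalytic subunit of the rate-limiting ligase, had 75.6 ± 2.99 CPM in WT and 72.4 ± 4.71 CPM in KO (SD, n = 5 and 4), and its modifier subunit Gclm 23.8 ± 0.833 and 24.7 ± 1.96 CPM. Both changed sign without KO 1 and KO 4, Gclc from -0.06 ± 0.05 to 0.01 ± 0.05 and Gclm from 0.05 ± 0.06 to -0.05 ± 0.07. Gss, glutathione synthetase, had 7.84 ± 0.860 CPM in WT and 9.35 ± 0.639 CPM in KO, a log2 fold change of 0.25 ± 0.10 (edgeR adjusted p = 0.187). Exons of Gss overlap those of Acss2 on the other strand, and whether strand was used in counting is not given, so its reads are uncertain. Exons also overlap those of another gene on the other strand for Gclm, Txnrd2, Prdx5, Hmox2 and Keap1, and in Gclm on the same strand as well, with the same doubt. Slc7a11, the cystine importer that feeds glutathione synthesis in many cultured cells, was hardly seen. It had 0 to 3 counts per library and 11 over all 9, where 3 counts amount to between 0.172 and 0.196 CPM in single libraries, so no difference was detectable at this depth.

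Among the other glutathione users, Gpx4, the peroxidase that protects membrane lipids, had 58.2 ± 2.25 CPM in WT and 63.3 ± 7.75 CPM in KO (edgeR adjusted p = 0.330). KO 1 alone was high, at 74.8 CPM, and the other KO libraries held 58.0 to 60.4 CPM. Prdx6, a peroxiredoxin recharged by glutathione, was at 92.9 ± 5.61 and 94.1 ± 3.48 CPM. Glrx, the cytosolic glutaredoxin that removes glutathione from proteins, ran from 31.5 to 36.6 CPM in WT and was at 54.3, 34.5, 37.0 and 42.1 CPM in KO 1 to KO 4. Its log2 fold change of 0.31 ± 0.12 (edgeR adjusted p = 0.180) became 0.07 ± 0.07 without KO 1 and KO 4. Glrx3 and Glrx5, which work in iron-sulphur cluster handling, had log2 fold changes of 0.13 ± 0.06 and 0.16 ± 0.08, and mitochondrial Glrx2 one of 0.03 ± 0.07, with edgeR adjusted p of 0.197 or more. Glrx3 did not overlap between the groups, but by a narrow margin, the highest WT value being 44.68 CPM and the lowest KO value 44.74 CPM.

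The thioredoxin arm had 8 of 11 genes above 0 (51.5% of all genes), at a median log2 fold change of 0.09. None of the 11 passed edgeR's test at 0.05 (3.28% of all genes), while 5 had an unadjusted p below 0.05 (21.6% of all genes). DESeq2, which called 6.94% of all genes, called Srxn1 and Prdx1 in this arm besides Gsr and Gpx1, and limma-voom, which called 2.72%, called none of the 30. Srxn1 encodes sulfiredoxin, which restores peroxiredoxins that were over-oxidised by peroxide. Srxn1 was scarce, at 3.08, 2.67, 1.63, 1.78 and 2.88 CPM in WT 1 to WT 5 and 5.30, 3.53, 3.28 and 4.48 CPM in KO 1 to KO 4. The groups did not overlap, and KO 1 and KO 4 were the highest. Its log2 fold change of 0.78 ± 0.23 was the largest positive one in the arm, with edgeR adjusted p = 0.0753 and DESeq2 adjusted p = 0.0387. Without KO 1 and KO 4 it was 0.50 ± 0.27 (edgeR adjusted p = 0.443).

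Prdx1, a cytosolic peroxiredoxin that thioredoxin recharges, was chosen for description after its values were seen. Prdx1 was at 119.8, 132.2, 112.8, 120.0 and 118.9 CPM in WT 1 to WT 5 and at 141.7, 126.0, 133.5 and 146.1 CPM in KO 1 to KO 4. The groups overlapped because WT 2 lay above KO 2. Their log2 fold change was 0.18 ± 0.05 (edgeR adjusted p = 0.0841, DESeq2 adjusted p = 0.0425). In edgeR it passed without WT 2 (0.22, adjusted p = 0.0334) and without KO 2 (0.22, adjusted p = 0.0402), the libraries of that overlap, and in no other fit that left out 1 library. With KO 1 and KO 4 left out it was 0.10 ± 0.06 (edgeR adjusted p = 0.478). Srxn1 and Prdx1 are the pair whose promoter windows are printed above with a match.

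Other peroxiredoxins stood closer to WT. Prdx2, its cytosolic relative, had 83.3 ± 4.79 CPM in WT and 92.8 ± 7.64 CPM in KO, with KO 1 and KO 4 above all WT libraries and KO 2 and KO 3 inside their range (log2 fold change 0.16 ± 0.06, edgeR adjusted p = 0.151). Its exons overlap those of Junb, an immediate early gene, on the other strand, and WT 1, the library high in such genes, was at 81.8 CPM, inside the range of the other WT libraries. Prdx3 of mitochondria had 57.9 ± 1.91 and 61.7 ± 2.21 CPM, and Prdx5, of mitochondria and peroxisomes, 65.5 ± 3.44 and 67.2 ± 5.71 CPM, both with overlapping groups. The log2 fold change of Prdx5 was 0.04 ± 0.06, and -0.05 ± 0.07 without KO 1 and KO 4. Prdx4, the peroxiredoxin of the secretory pathway, was at 16.4, 24.7, 15.5, 14.9 and 14.7 CPM in WT 1 to WT 5 and 18.6, 13.7, 14.8 and 20.8 CPM in KO 1 to KO 4. The high libraries were WT 2, KO 1 and KO 4, and the rest lay within 13.7 to 16.4 CPM. The direction of Prdx4 changed with single libraries: the log2 fold change was -0.02 ± 0.18 with all 9 (edgeR adjusted p = 0.960), and 0.15 without WT 2, 0.07 without KO 2 and 0.04 without KO 3. B cell and plasma cell markers, highest in KO 1 and KO 4, summed to 217 CPM in WT 2, inside the WT range. WT 2 was also the library with the keratin and Txn-ps1 counts. What part either has in the Prdx4 values was not tested.

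Thioredoxins and their reductases did not pass either. Txn1, cytosolic thioredoxin, had 70.8 ± 6.18 CPM in WT and 80.01 ± 10.4 CPM in KO, and its log2 fold change of 0.18 ± 0.09 (edgeR adjusted p = 0.276) fell to 0.01 ± 0.08 without KO 1 and KO 4. Its highest WT library was WT 2, at 80.3 CPM, the library that also held the Txn-ps1 counts. Mitochondrial Txn2 had 94.99 ± 5.78 and 102 ± 4.60 CPM, and the difference was 0.11 ± 0.05 with and 0.14 ± 0.06 without KO 1 and KO 4 (edgeR adjusted p = 0.229 and 0.312). The reductases Txnrd1 of the cytosol (80.6 ± 5.05 and 84.4 ± 2.75 CPM) and Txnrd2 of mitochondria (22.7 ± 1.49 and 22.3 ± 2.79 CPM) overlapped between the groups.

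Txnip binds and blocks thioredoxin, limits glucose uptake, and was by far the most abundant of the 31 genes. Txnip was at 601, 566, 691, 643 and 738 CPM in WT 1 to WT 5 and at 440.2, 609, 613 and 502 CPM in KO 1 to KO 4. Only KO 1 and KO 4 lay below the WT range. Its log2 fold change was -0.26 ± 0.12 (SE, n = 5 and 4, edgeR adjusted p = 0.233), and -0.09 ± 0.10 without KO 1 and KO 4 (adjusted p = 0.759). Exons of Txnip overlap the antisense gene Gm15441, so its reads are not certain by strand.

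**Figure D2:**
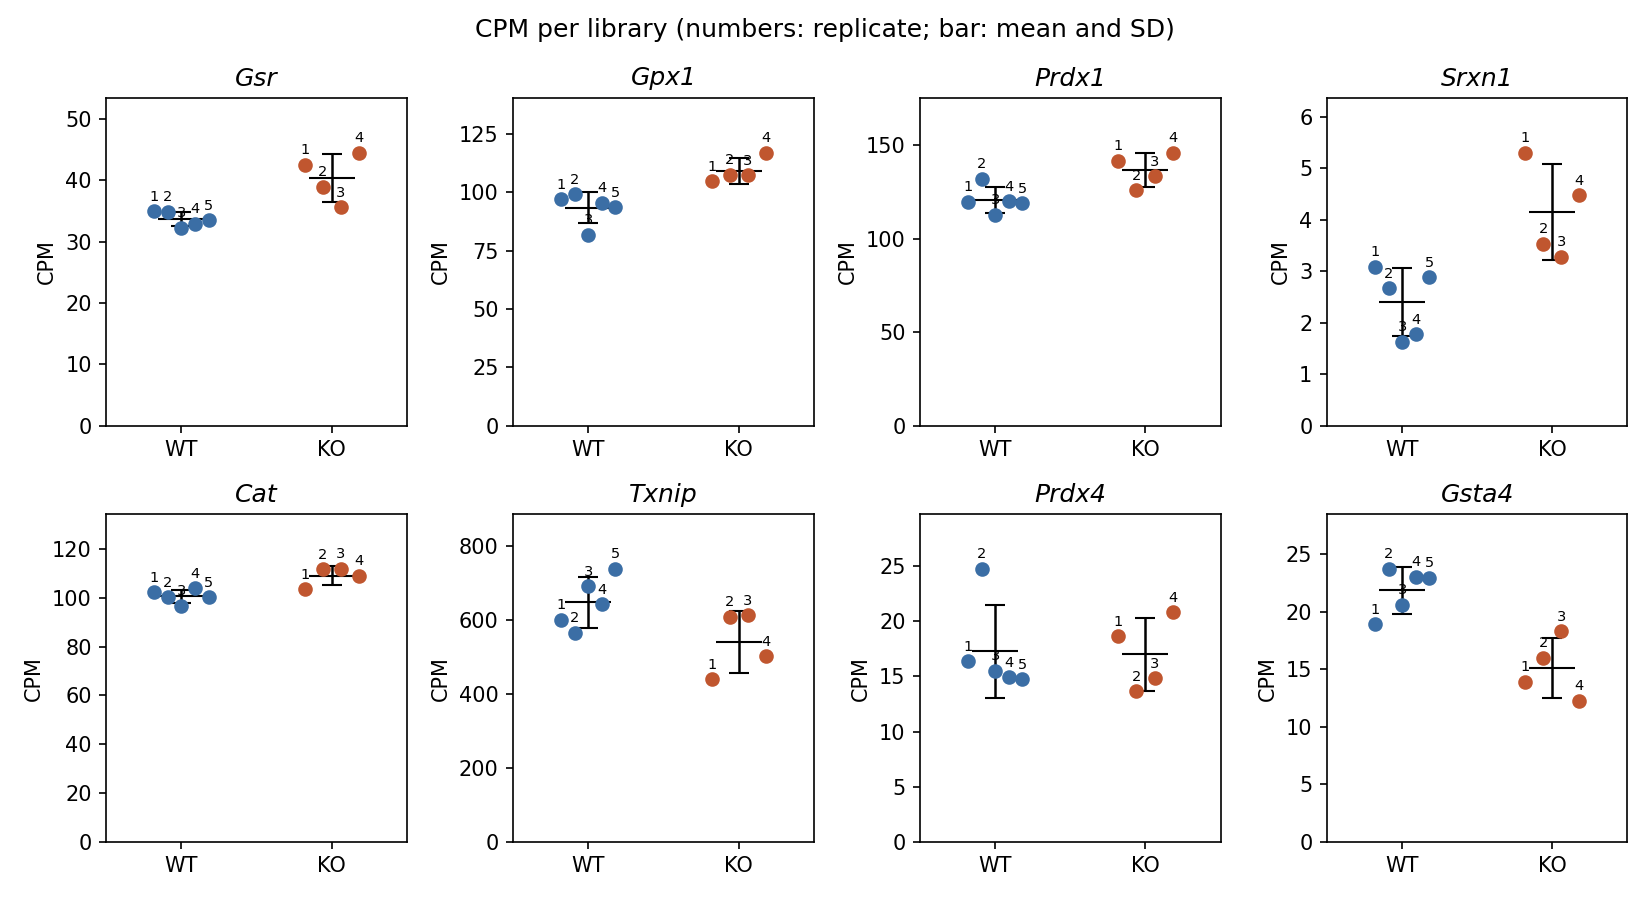
Points are CPM of single libraries (axes from 0, labelled by replicate number) for 7 of the antioxidant genes and for Gsta4, with the mean and SD of each group in black. Gsr, Gpx1, Srxn1 and Gsta4 show no overlap of WT and KO; in Txnip the low KO points are replicates 1 (440.2 CPM) and 4 (502 CPM), and in Prdx4 the highest point is WT 2 (24.7 CPM).

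Set side by side, both arms lay higher in KO, by similar amounts in the mean over all tested genes of each arm. The mean log2 CPM over the 11 tested glutathione genes was 5.27 ± 0.05 in WT and 5.40 ± 0.06 in KO (SD, n = 5 and 4), a difference of 0.13. Over the 11 thioredoxin genes it was 5.77 ± 0.09 and 5.88 ± 0.09, a difference of 0.12. The glutathione mean minus the thioredoxin mean was -0.50 ± 0.05 in WT and -0.48 ± 0.05 in KO, so the balance of the arms differed by 0.02, less than the SD within either group. That small difference depended on the genes and the average used. Leaving out Txnip, the thioredoxin arm was 0.15 higher in KO. Over genes of mean CPM 5 or more, or as a median over genes, the balance differed by more than 0.05, as given in the last section. Without KO 1 and KO 4 the glutathione arm was 0.08 higher in KO and the thioredoxin arm 0.04 higher, and the balance differed by 0.05. These means were given no test, since the genes had been chosen with results of these data known.

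**Figure D3:**
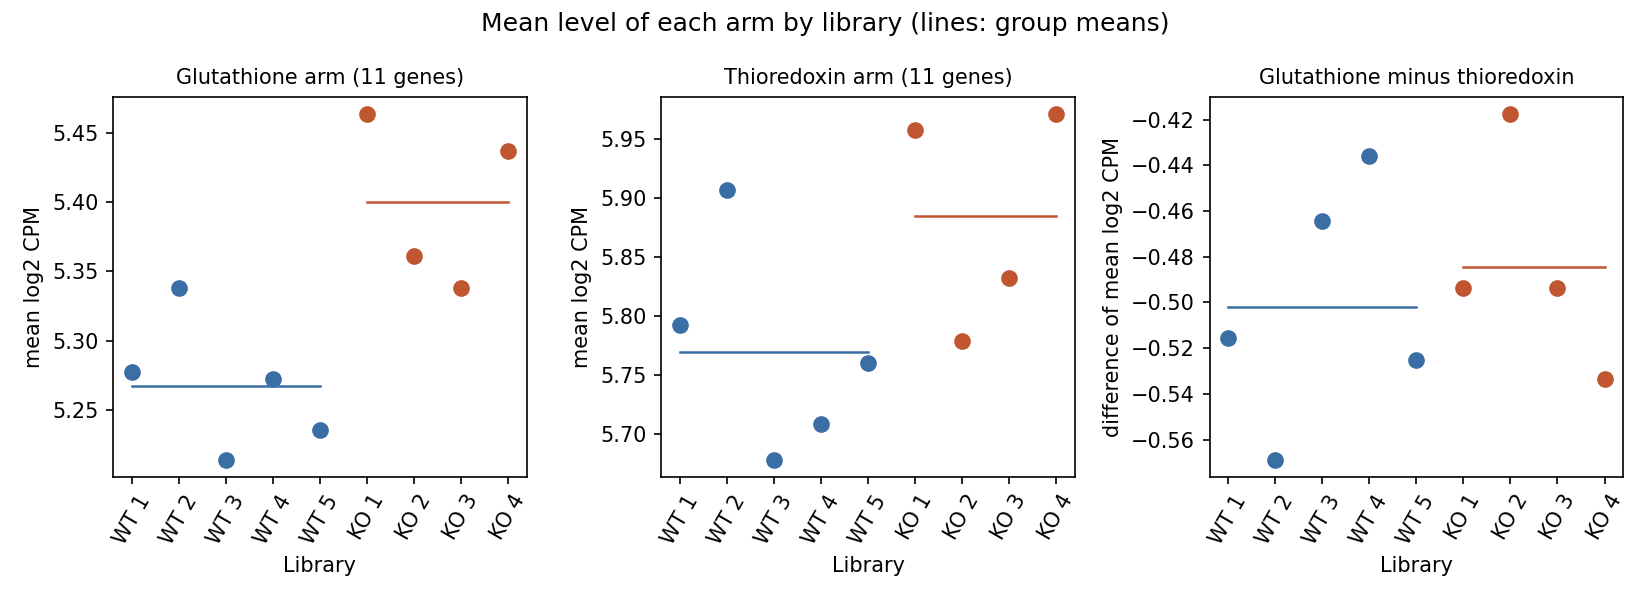
Points are single libraries: mean log2 CPM of the 11 glutathione genes (left), of the 11 thioredoxin genes (middle) and the difference of these means (right), with a line at each group mean. KO 1 and KO 4 are the highest in both arms, WT 3 is the lowest in both, and the group lines on the right, at -0.50 and -0.48, nearly meet.

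Among the haem and quinone enzymes, single libraries stood out and none of the 3 genes passed. Hmox1, the inducible haem oxygenase, which frees iron from haem and is abundant in red pulp macrophages of the spleen, was at 11.4, 7.46, 5.43, 13.4 and 11.02 CPM in WT 1 to WT 5 and at 22.9, 7.06, 11.8 and 36.2 CPM in KO 1 to KO 4. KO 1 and KO 4 lay above every WT library, and KO 2 and KO 3 inside the WT range. A log2 fold change of 1.01 ± 0.49 (edgeR adjusted p = 0.283) changed sign without KO 1 and KO 4, to -0.05 ± 0.38 (adjusted p = 0.976). The 13 macrophage markers summed to 198 and 247 CPM in KO 1 and KO 4, against 87.3 to 149.8 CPM in WT, 88.7 CPM in KO 2 and 112 CPM in KO 3. A large part of these sums was Axl, at 54.5 to 65.4 CPM in WT and 84.8, 57.2, 58.3 and 70.5 CPM in KO 1 to KO 4. No marker of this list was at 0 in all libraries, and 0 of its 12 tested genes passed. Whether RNA of such cells has a part in the Hmox1 values was not tested. Hmox2, the constitutive form, had 52.3 ± 1.79 CPM in WT and 53.2 ± 1.80 CPM in KO (log2 fold change 0.02 ± 0.04, edgeR adjusted p = 0.792).

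Nqo1 encodes a quinone reductase, a classical target of NRF2. Nqo1 had 25, 181, 18, 9 and 17 counts in WT 1 to WT 5 and 18, 13, 7 and 31 counts in KO 1 to KO 4. WT 2 alone was high, at 10.97 CPM where all others had between 0.460 and 1.90 CPM. The log2 fold change of -1.52 ± 0.995 (edgeR adjusted p = 0.416) was -0.01 ± 0.40 without WT 2 (adjusted p = 0.994). In WT 2, 8 epithelial markers summed to 93.2 CPM, against 8.82 to 17.3 CPM in the other libraries, where most of it was Epcam. That list was chosen after the data had been seen, and its part in the Nqo1 value was not tested.

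**Figure D4:**
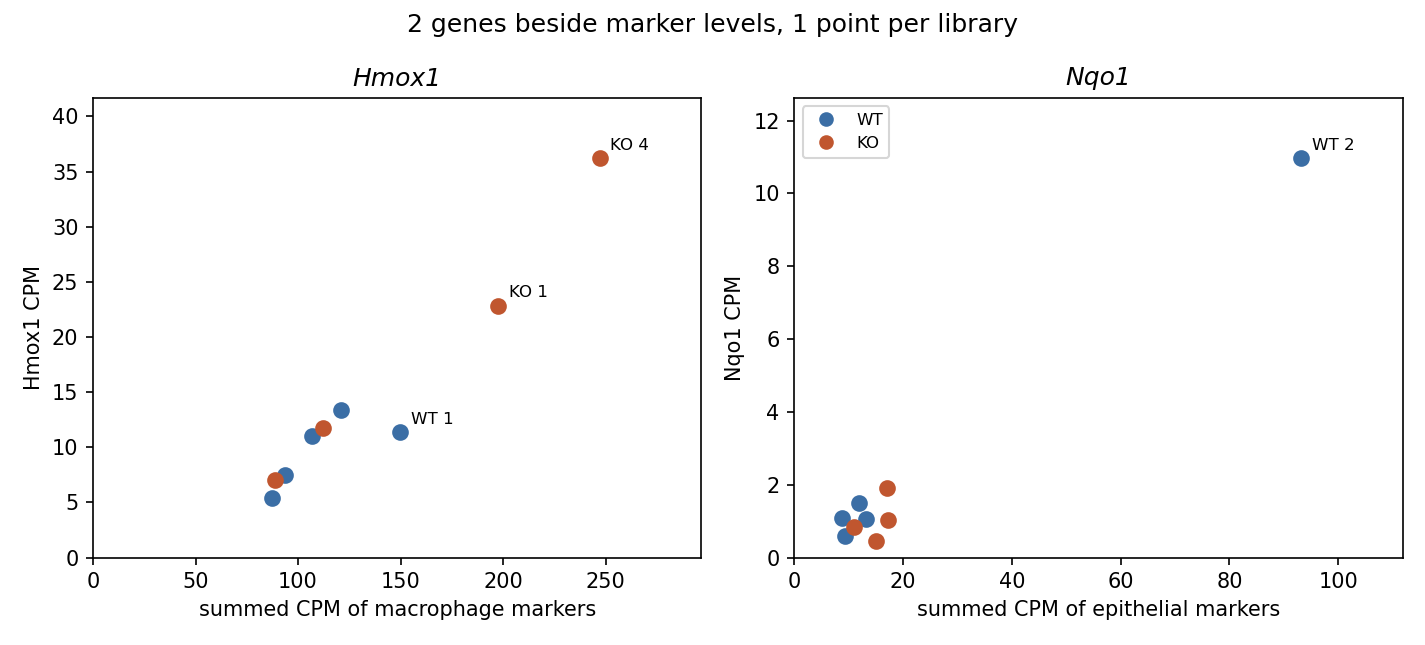
Each point is 1 library: Hmox1 CPM against the summed CPM of 13 macrophage markers (left) and Nqo1 CPM against the summed CPM of 8 epithelial markers (right), WT in blue and KO in orange. KO 1 and KO 4 have the highest values on both axes on the left; WT 2 has them on the right, at 93.2 and 10.97 CPM.

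Neither regulator of the response passed the test. Nfe2l2, the gene of NRF2, was at 41.4, 43.0, 47.9, 48.3 and 49.5 CPM in WT 1 to WT 5 and at 42.3, 45.2, 44.6 and 42.8 CPM in KO 1 to KO 4. Every KO value lay inside the WT range, and the log2 fold change was -0.07 ± 0.06 (SE, n = 5 and 4, edgeR adjusted p = 0.494). Keap1, the adaptor that sends NRF2 to degradation, had 79.7 ± 2.01 CPM in WT and 80.2 ± 3.39 CPM in KO (SD), with a log2 fold change of 0.01 ± 0.04 (edgeR adjusted p = 0.922) that was slightly below 0 without WT 3 or KO 3. NRF2 is controlled largely at the protein, which RNA counts do not show.

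**Figure D5:**
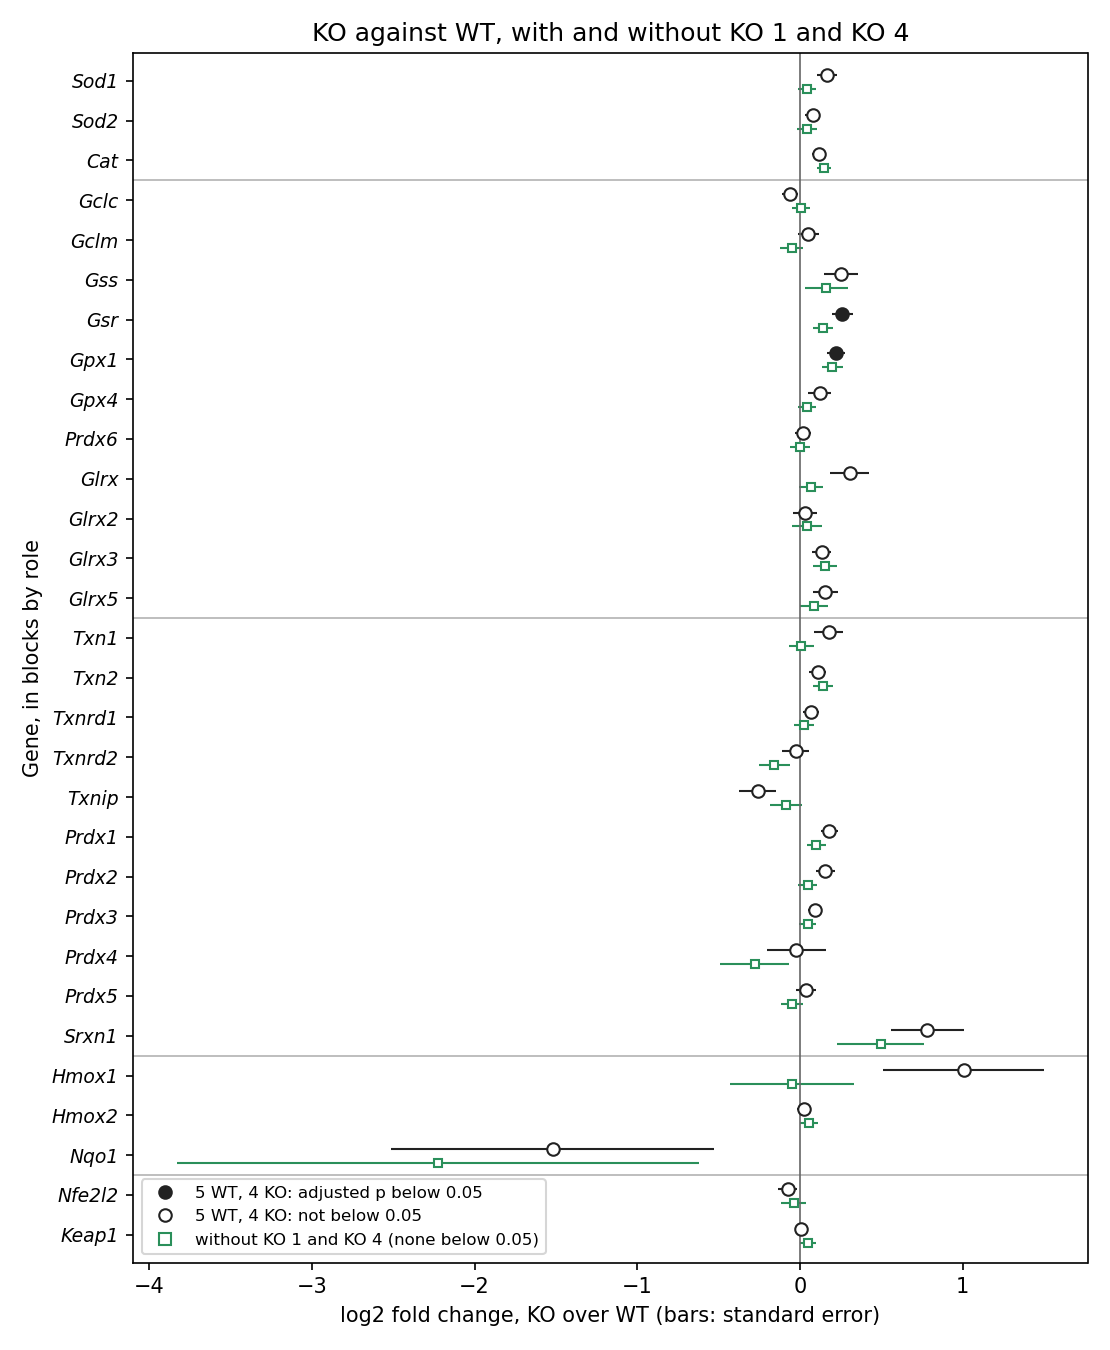
Log2 fold change of KO over WT with its SE for the 30 tested genes, in black for all 9 libraries (filled where edgeR's adjusted p is below 0.05) and in green without KO 1 and KO 4. Gsr and Gpx1 carry the filled symbols, most green points lie closer to 0 than the black ones, and the widest bars belong to Nqo1 and Hmox1.

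Levels of different genes were compared only per kilobase of the longest annotated transcript, as WT mean CPM per kb. Which transcripts these cells use was not determined, so the order rests on the length chosen, and a gene with a shorter main transcript is placed too low. Sod1, at 111 CPM in WT, came to 28.1 over a longest transcript of 3970 bases. By this measure Txnip was highest, at 229, followed by Gpx1 at 87.1, Txn1 at 67.3, Gpx4 at 58.5, Prdx1 at 52.6 and Prdx2 at 51.6. Gpx1 was the highest glutathione gene of the set by this measure and Gsr, at 12.6, one of moderate level. The lowest of the tested genes were Gclm at 4.26, Gss at 2.41, Nqo1 at 1.96 and Srxn1 at 0.856, and Slc7a11 had 0.0106. Between mice of the WT group, the coefficient of variation of CPM was smallest for Keap1 (2.53%) and Cat (2.69%) and largest, among tested genes, for Nqo1 (146%).

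Around these genes, 85 further genes of the same pathways were in the table and 74 were tested. A positive log2 fold change was found for 47 of them (51.5% of all genes), and 1 passed (3.28% of all genes), Gsta4, which was lower in KO (1.88% of all genes). Gsta4 (mm10, chromosome 9, 78182774 to 78209349, plus strand) encodes a glutathione S-transferase that couples glutathione to 4-hydroxynonenal, a product of lipid peroxidation. Gsta4 was at 18.9, 23.7, 20.6, 23.0 and 22.9 CPM in WT 1 to WT 5 and at 13.9, 16.0, 18.3 and 12.3 CPM in KO 1 to KO 4. All KO libraries lay below all WT libraries, KO 4 and KO 1 the farthest, for a log2 fold change of -0.53 ± 0.11 (SE, n = 5 and 4, edgeR adjusted p = 0.0253). Without KO 1 and KO 4 it was -0.35 ± 0.10 (adjusted p = 0.148), and without WT 1 as well -0.40 ± 0.09 (adjusted p = 0.0431). With 1 library left out, it passed in 4 of 9 fits, with edgeR adjusted p from 0.0189 to 0.0730, and failed without WT 3, WT 4, WT 5, KO 1 or KO 4. Among 23 tested genes of glutathione use, Mgst2, a membrane-bound transferase, came next, at 117 ± 10.1 CPM in WT and 102 ± 6.38 CPM in KO (edgeR adjusted p = 0.0990).

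Genes listed under NADPH supply, not all of which make NADPH themselves, had positive log2 fold changes in 11 of 15 cases, against 51.5% of all genes. None passed edgeR's test, while 6 had an unadjusted p below 0.05, against 21.6% of all genes. Taldo1, transaldolase of the pentose phosphate pathway, was at 115.9, 124.9, 110.2, 119.6 and 123.5 CPM in WT 1 to WT 5 and at 130.1, 129.3, 139.8 and 139.2 CPM in KO 1 to KO 4. The groups did not overlap, and KO 2 and KO 3 were as high as KO 1 and KO 4. Its log2 fold change was 0.18 ± 0.05 (edgeR adjusted p = 0.0522) and 0.18 ± 0.06 without KO 1 and KO 4 (adjusted p = 0.186), and it passed in the fits without WT 2 (adjusted p = 0.0344) and without KO 2 (adjusted p = 0.0443). Pgd, which makes NADPH in the same pathway, had 76.0 ± 1.81 CPM in WT and 84.5 ± 5.30 CPM in KO, again with no overlap (0.15 ± 0.05, edgeR adjusted p = 0.0849). Nnt, the mitochondrial transhydrogenase that is deleted in part in C57BL/6J mice, was present in both groups, at 54.4 ± 2.38 CPM in WT and 53.5 ± 1.57 CPM in KO (edgeR adjusted p = 0.801).

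Of 18 tested thioredoxin-like and repair enzymes none passed edgeR's test, and 3 had an unadjusted p below 0.05, where 21.6% of all genes did. Msrb3, a methionine sulfoxide reductase, was low, at 0.604 ± 0.144 CPM in WT and 1.18 ± 0.293 CPM in KO, without overlap (edgeR adjusted p = 0.0715). Txndc17, a thioredoxin-like protein of the cytosol, had 31.5 ± 2.47 and 35.4 ± 1.49 CPM (edgeR adjusted p = 0.153). Of 18 tested partners and targets of NRF2 none passed either, with 4 below an unadjusted p of 0.05, against the same 21.6%. Bach1 and Bach2 encode repressors that compete with NRF2 for its sites, and Bach2 is also known for keeping T cells quiescent. Bach1 was at 38.1, 39.6, 41.2, 39.7 and 40.8 CPM in WT 1 to WT 5 and at 32.9, 37.6, 33.4 and 35.4 CPM in KO 1 to KO 4. The groups did not overlap, and the log2 fold change was -0.20 ± 0.05 (edgeR adjusted p = 0.0593), passing when KO 2 was left out (adjusted p = 0.0308). Bach2 had 168 ± 9.68 CPM in WT and 141 ± 17.7 CPM in KO, with KO 1 and KO 4 the lowest (edgeR adjusted p = 0.0946), and it passed without WT 2 (adjusted p = 0.0473) or KO 2 (adjusted p = 0.0189). Without KO 1 and KO 4, Bach1 was at -0.17 ± 0.07 and Bach2 at -0.12 ± 0.06, with edgeR adjusted p of 0.269 and 0.442.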

How the data were processed

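Sorted Treg cells of 5 WT and 4 KO mice were analysed, grouped by title. The authors deposited raw counts, 1 table with a row per gene symbol. Libraries were made with a TruSeq stranded kit, per the labels' protocols. STAR 2.7, mm10 and DESeq2 stand in the submitters' processing notes without a stated role; how reads were counted, and by which annotation or strand, is not given there. The test was edgeR 4.0.16 under R 4.3.3 (robust quasi-likelihood fit, trimmed-mean scaling, default low-count filter, two-sided), with Benjamini-Hochberg adjustment over all 12738 genes tested and a threshold of 0.05. SE is the absolute log2 fold change over the root of F. CPM is scaled to the effective library size; log2 CPM used a prior count of 2. Floors (3 counts) cover counting error only. Symbols were placed on mm10 with GENCODE M21, 24746 by name and 620 by RefSeq synonym, and 1317 were not placed. No 2 libraries were duplicates: a chi-square per degree of freedom was 2.60 for the closest pair. Alternatives were other scalings and filters, DESeq2 1.42.0, limma-voom 3.58.1, replicate blocks and left-out libraries.

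The genes and lists were chosen with earlier results of these data known. Described in full were genes past the threshold and, in each role group, those with the smallest p and the largest mean CPM; of the further pathway genes, those past the threshold or, with none in a list, the 2 with the smallest p, and Nnt. Glrx, Gpx4, Txn1, Prdx1, Prdx2, Prdx4, Nqo1 and Mgst2 were added after their values were seen. Leaving out WT 2 with KO 1 and KO 4, or WT 1 with WT 2, and the epithelial markers were also chosen after seeing the data.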

Additional observations from a re-analysis of the deposited data

Results flagged for a closer look

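For 86 sets of 4 or 5 libraries, the gap between the most extreme library and its nearest neighbour was compared with the range of the group. It was above the 95% limit for 6, and chance alone gives about 5%. WT 2 held 3 of them, all as the highest WT library: Prdx4 at 24.7 CPM, Prdx5 at 71.6 CPM and Nqo1 at 10.97 CPM. Among the KO libraries, KO 1 was the highest for Gpx4 (74.8 CPM), KO 4 was the highest for Glrx5 (31.2 CPM), and KO 3 was the lowest for Sod2 (47.4 CPM).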

How the results depend on the processing

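The 2 antioxidant genes past the threshold became 1 with scaling by library totals, 4 with DESeq2 (Gsr, Gpx1, Prdx1 and Srxn1), 0 with limma-voom and 0 to 3 with 1 library left out. They became 0 without KO 1 and KO 4, without these and WT 1, or without these and WT 2. Of the further pathway genes, 1 in the reported fit, 3 passed with genes of mean CPM 5 or more, 4 with DESeq2, 0 without KO 1 and KO 4, 0 without these and WT 2, 3 without WT 1 and WT 2, and 0 to 5 with 1 library left out. Of all genes, 418 passed in the reported fit, 882 with DESeq2, 118 without KO 1 and KO 4, 250 without these and WT 1, 243 without these and WT 2, 644 without WT 1 and WT 2, and 97 to 697 with 1 library left out, the lowest without WT 3 and the highest without WT 2. The cause of these shifts was not tested, though fits with fewer libraries also have fewer degrees of freedom.

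Whether replicate numbers pair the libraries is not known. Deviations of same-numbered libraries from their group mean correlated at 0.10, -0.06, 0.10 and -0.07 by title and 0.10, 0.09, 0.06 and -0.26 by the bracketed number. These values cannot settle it, since differently numbered libraries were not compared and single libraries stood apart. A replicate block on the title number left 26 genes, 0 antioxidant genes and 0 pathway genes past the threshold; a block on the bracketed number left 443, 3 and 3.

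Of the 39 genes followed through the alternatives, 11 changed direction under at least 1 of them, and none of these passed the threshold in any. Hmox1 was at -0.048 without KO 1 and KO 4 and -0.13 without these and WT 2. Keap1 ran from -0.015 to 0.033 with 1 library left out, below 0 without WT 3 (-0.0057) or KO 3 (-0.015). Nnt was at 0.0012 with the block on the bracketed number and ran from -0.044 to 0.0021 with 1 library left out, above 0 without WT 2. Prdx4 was at 0.13 with that block and 0.17 without WT 1 and WT 2, where Nqo1 was at 0.21; with 1 library left out it ran from -0.14 to 0.15, above 0 without WT 2 (0.15), KO 2 (0.068) or KO 3 (0.037). The difference between the arms was 0.02 as reported, 0.083 with genes of mean CPM 5 or more and 0.093 as a median over genes. Without KO 1 and KO 4, without these and WT 1, and without these and WT 2, Gclm was at -0.051, -0.047 and -0.040, and Prdx5 at -0.047, -0.054 and -0.014. Gclc was at 0.0051 and 0.0018 in the first and second of these, and Glrx2 at -0.0075 in the second and -0.039 without WT 1 and WT 2. Txnrd2 was at 0.00072 with the block on the bracketed number. With 1 library left out, Txnrd2 ran from -0.082 to 0.055, Glrx2 from -0.021 to 0.061, Prdx6 from -0.0054 to 0.044 and Prdx5 from -0.0092 to 0.090. For these 39 genes, 770 alternative values kept direction and side of the threshold, 34 fell below it and 21 rose past it. Depth limits Slc7a11. Counts were also low for Nqo1, Srxn1 and Msrb3, but how far depth limits these was not tested.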
